A study of Mus musculus with 6 samples.

Results

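The mitogen-activated protein kinase (MAPK) cascade genes described here are the MAP2Ks, MAP3Ks and MAP4Ks of mouse neural stem cells (NSCs). They were taken by name, as every row of the deposited expression table whose gene symbol is Map, a tier digit from 2 to 4, the letter k and a number. The rule gave 31 of 53379 rows, made up of 8 MAP2K, 18 MAP3K and 5 MAP4K rows, and it used no measured value. The 31 rows carry 30 names, because *Map2k7* is listed under a pair of Ensembl identifiers. NSCs were derived from the telencephalic cortex of E14.5 embryos carrying *Tbl1xr1* flox/flox and grown as neurospheres with bFGF and EGF. *Tbl1xr1* codes for a subunit of the NCOR and SMRT corepressor complexes. The cells were infected with lentivirus. In 1 arm it carried Cre-GFP, where Cre recombinase cuts out the floxed exon 5, in the other GFP only (control), and GFP+ cells were sorted. All 6 libraries therefore carry the floxed alleles and a lentivirus, with 3 libraries in the control group, numbered 1, 1_1 and 2, and 3 in the other, numbered 2, 2_2 and 3 and called the libraries labelled Cre.

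In a MAPK cascade each kinase phosphorylates and switches on the next. MAP4Ks, relatives of yeast Ste20, and small GTPases act on MAP3Ks, MAP3Ks act on MAP2Ks, and the dual-specificity MAP2Ks activate the MAPKs of the ERK, JNK, p38 and ERK5 branches. In NSCs, growth factors such as bFGF and EGF feed mainly into the ERK branch, while JNK and p38 answer mostly to stress and cytokines. The values below are mRNA levels and do not measure kinase activity or protein.

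The deposited values are normalized counts, that is, reads per gene scaled with DESeq2 size factors. The recovered library totals ran from 7510615 to 11161497 reads in control and from 11893230 to 14828100 in the libraries labelled Cre. Each library labelled Cre was thus deeper than each control, so low kinases were compared at unequal depth. Whether control 1 and 1_1 came from separate cultures is not in the labels, nor is it for Cre 2 and 2_2, so the p-values measure only the spread between these libraries, which may be technical. Reads of like-numbered libraries differed by more than sampling noise. The chi-square per degree of freedom was 14.3 for control 1 and 1_1 and 23.5 for Cre 2 and 2_2, within the range of 5.85 to 36.0 over the 6 pairs of libraries of 1 group. The embryo or culture behind each library is not given, and differences between cultures and the effect of Cre cannot be told apart. *Tbl1xr1* itself was at 2522, 2190 and 2721 in control and at 3774, 3463 and 2905 in the libraries labelled Cre (log2 fold change 0.45, standard error (SE) 0.14, limma adjusted p = 0.06). It was called higher with DESeq2 on the recovered reads (adjusted p = 0.0398) and without Cre replicate 3 (0.0234), and over all alternatives the adjusted p reached 0.211. The count of the targeted gene therefore did not fall with the Cre label, although counts over the whole gene do not measure the deleted exon on its own. For sorted NSCs made this way, the study reported the correct genotypes and absence of *Tbl1xr1* mRNA by RT-qPCR and of the protein by Western blot. Whether the cells of these libraries were among those checked is not given. Of 10 neural stem cell markers, all 10 were above the filter and 1 fell, *Nes* (marker genes here are named after their values were seen). The summed normalized count of the 10 ran from 38962 to 42730 in control and from 39461 to 41481 in the libraries labelled Cre. That sum covers moves both ways, with 6 log2 fold changes positive and 4 negative. *Vim* was lower in each library labelled Cre (means 12650 and 9949, limma adjusted p = 0.105). *Slc1a3* (means 6060 and 7408, limma adjusted p = 0.126) and *Pax6* (limma adjusted p = 0.295) were higher in each.

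Some other cell state markers moved with the groups. Of 10 S phase genes, 6 fell (summed normalized count 11426 to 13379 in control, against 7654 to 7919 with the Cre label). Of 6 astrocyte markers tested, 3 rose, *S100b*, *Aqp4* and *Slc1a2* (sum 3111 to 3411 and 5590 to 6568). The astrocyte sum covers moves both ways, with 5 log2 fold changes positive and 1 negative. *Aldh1l1*, at low counts, was lower in each library labelled Cre (means 17.3 and 5.35, log2 fold change -1.65, limma adjusted p = 0.065). Among 5 oligodendrocyte lineage markers tested, 3 rose, *Olig2*, *Pdgfra* and *Cspg4* (sum 4754 to 6017 and 8653 to 9779). Of 6 neuron markers tested, 1 fell, *Gap43* (sum 17539 to 18567 and 14756 to 16743), while *Stmn2*, a defining marker, was at 0 in every library. The neuron markers did not move together, with 3 log2 fold changes positive and 3 negative. The mean of *Gap43* went from 8711 to 5196. *Map2* was at 9124, 9312 and 9194 in control and at 10565, 11155 and 9903 with the Cre label (limma adjusted p = 0.337). These lists were chosen with earlier results known, their part in the kinase values was not tested, and in bulk RNA fewer cells of a type and less RNA per cell cannot be told apart. Of the microglial and endothelial markers only *Csf1r* and *Kdr* were above the filter and neither passed, and none of the fibroblast markers was above it. The summed counts were 164 to 206 in control and 168 to 274 in the libraries labelled Cre for microglia, mostly *Csf1r*, 26.7 to 40.4 and 14.3 to 19.4 for endothelium, and 0.918 to 5.85 and 0.693 to 20.6 for fibroblasts. The defining markers *Tmem119*, *Cldn5*, *Cdh5*, *Col1a2* and *Pdgfrb* were at 0 in all 6 libraries.

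RefSeq promoter sequences (build GRCm38.p6) were found for 25 of the 30 names, in 32 windows, and those of *Map2k7* serve both of its records. *Map3k2*, *Map3k8*, *Map3k15*, *Map3k19* and *Map4k4* had no entry in the table. The 250 bases before the start are printed for 5 kinases on which the comparisons below turn, *Map4k3* and *Map3k1*, which passed the test, and *Map3k3*, *Map2k3* and *Map2k2*, whose counts were lower in each library labelled Cre. Letters in capitals are matches on either strand to the GC box bound by SP1 (GGGCGG), to an ETS core (CCGGAA), to E2F sites (TTTCCCGC or TTTGGCGC) or to a cAMP response element (TGACGTCA).
*Map4k3*, chr17:80728026-80728275, minus strand: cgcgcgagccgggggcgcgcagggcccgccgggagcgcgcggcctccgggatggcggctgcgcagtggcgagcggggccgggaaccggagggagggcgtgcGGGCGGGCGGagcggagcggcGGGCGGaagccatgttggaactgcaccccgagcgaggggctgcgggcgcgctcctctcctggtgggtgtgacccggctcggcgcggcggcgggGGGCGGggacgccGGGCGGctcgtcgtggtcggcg
*Map3k1*, chr13:111808994-111809243, minus strand: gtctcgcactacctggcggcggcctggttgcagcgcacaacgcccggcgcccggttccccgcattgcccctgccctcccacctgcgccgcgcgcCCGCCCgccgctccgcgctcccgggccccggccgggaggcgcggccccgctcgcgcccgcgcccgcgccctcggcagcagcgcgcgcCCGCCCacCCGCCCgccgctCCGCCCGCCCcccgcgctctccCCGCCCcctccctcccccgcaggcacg
*Map3k3*, chr11:106084337-106084586, plus strand: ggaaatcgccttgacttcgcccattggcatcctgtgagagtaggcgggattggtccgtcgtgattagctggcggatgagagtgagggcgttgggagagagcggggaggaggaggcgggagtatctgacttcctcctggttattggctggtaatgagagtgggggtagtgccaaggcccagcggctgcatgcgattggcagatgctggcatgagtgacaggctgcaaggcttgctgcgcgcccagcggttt
*Map2k3*, chr11:60931804-60932053, plus strand: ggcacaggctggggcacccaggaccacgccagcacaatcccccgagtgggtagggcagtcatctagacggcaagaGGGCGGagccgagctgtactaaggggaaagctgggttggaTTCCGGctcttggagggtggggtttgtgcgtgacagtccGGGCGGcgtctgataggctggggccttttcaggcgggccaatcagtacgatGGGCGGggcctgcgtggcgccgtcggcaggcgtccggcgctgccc
*Map2k2*, chr10:81105665-81105914, plus strand: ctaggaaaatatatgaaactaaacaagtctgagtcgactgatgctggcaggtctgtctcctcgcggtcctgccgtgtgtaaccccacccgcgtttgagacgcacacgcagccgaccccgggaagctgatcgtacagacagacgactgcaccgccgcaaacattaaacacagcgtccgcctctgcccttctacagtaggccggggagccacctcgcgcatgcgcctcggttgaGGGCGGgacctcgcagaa
The windows of *Map4k3* and *Map3k1* lie inside the span RefSeq gives for each gene, at a start further in. *Map4k3* held 5 GC boxes, of which a pair overlap, and *Map3k1* held 6 on the opposite strand, again with a pair that overlap. *Map2k3* held 3 GC boxes and 1 ETS core, *Map2k2* held 1 GC box, and *Map3k3* held no match to any of the 4 motifs. A match is a description of letters and not of a bound site.

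Across the 32 kinase windows, 17 (53.1%) held a GC box, against 32.7% of all 32851 windows of this length. An ETS core stood in 9 (28.1%), against 12% of all windows, among them those of *Map2k1*, *Map2k3*, *Map2k4*, *Map2k5* and *Map3k7*. E2F sites, with the letters given above, were in 0 of 32 kinase windows and in 1.3% of all windows. The cAMP response element was likewise in 0 of 32, against 1.55% of all windows. A CCAAT box (CCAAT), not capitalized above, was in 8 windows (25.0%), against 33.8% of all, and an AP-1 site (TGANTCA) was in 3 (9.38%), against 6.75%. The kinase windows were also richer in G and C, with a median GC content of 61.4% against 52.4% for all windows. Their median ratio of observed to expected CpG was 0.731, against 0.373, with *Map3k1* (85.2% GC) and *Map4k3* (82.4% GC) the highest in GC content among the kinase windows. Counted by kinase, 16 of the 25 with a window held a GC box in any of their windows. Of the 6 kinases that were lower in each library labelled Cre, 4 held a GC box, as did all 3 of the kinases higher in each such library that had a window. These small sets were picked by their values, and no difference from the 16 of 25 was tested.

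A mean normalized count of at least 10 was reached by 26 rows, all 8 MAP2K, 13 MAP3K and all 5 MAP4K rows. Between the groups, *Map3k1* rose and *Map4k3* fell (limma on log2(normalized count + 1), Benjamini-Hochberg adjusted p under 0.05), and the other 24 did not pass. edgeR (9.99% of all genes called) and DESeq2 (11.8%) on the recovered reads called the same 2 kinases. Over all 14840 genes tested, 9.96% passed, 4.74% upward and 5.22% downward, so 2 of 26 (7.69%) is close to the background share. The signs were mixed, with 12 kinases positive and 14 negative. The median log2 fold change of the kinases was -0.04 and the median size 0.27, against 0.00 and 0.26 over all genes tested. At an unadjusted p under 0.05 (limma) 3 kinases were higher and 4 lower, where 25.5% of all genes tested passed. The 3 libraries of one group lay entirely on one side of the other for 10 kinases (38.5%), 4 higher (*Map3k1*, *Map3k2*, *Map3k7* and *Map4k2*) and 6 lower (*Map2k2*, *Map2k3*, *Map3k3*, *Map3k5*, *Map3k13* and *Map4k3*). The same was true of 30.3% of all genes tested, 14.7% higher and 15.5% lower.

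**Figure D1:**
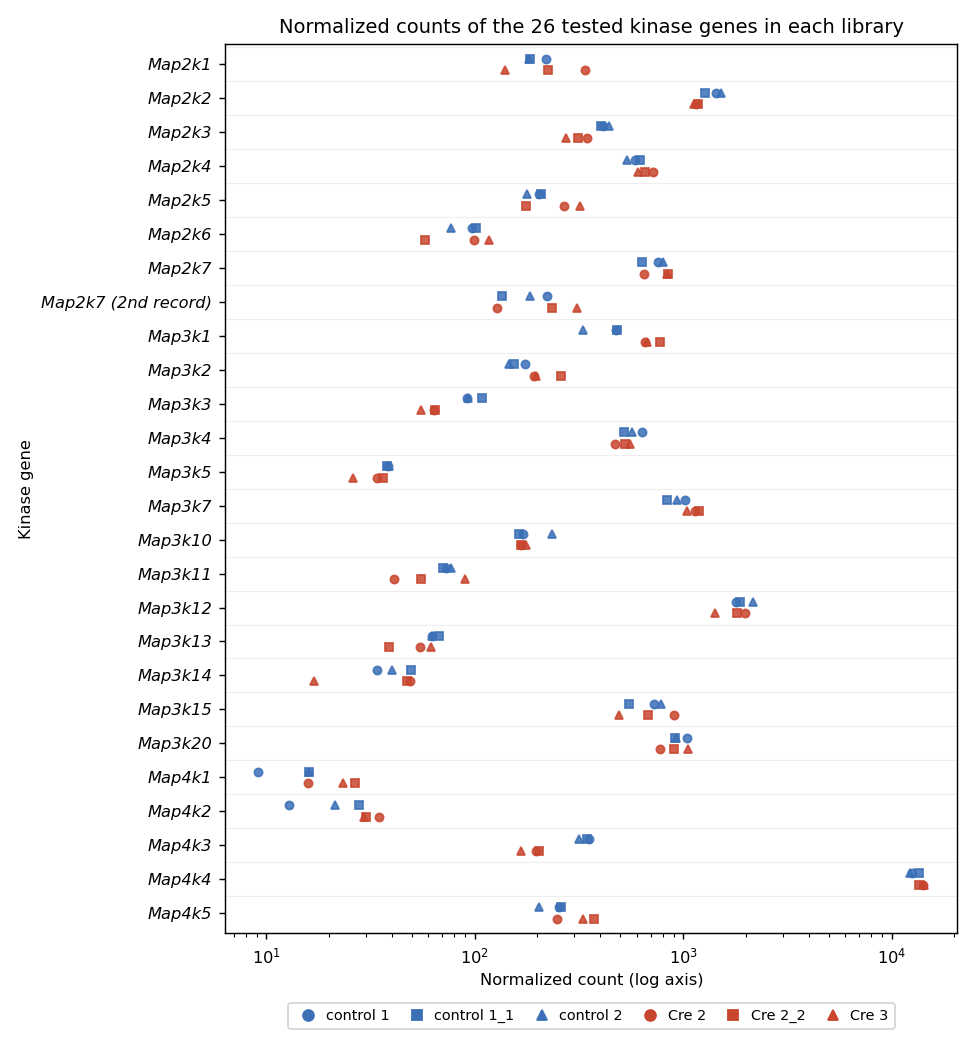
Normalized count (horizontal, log axis) of the 26 tested kinase rows in each of the 6 libraries, with control in blue and the libraries labelled Cre in red, and the replicate shown by the symbol. *Map4k4* lies furthest to the right in every library, and the red and blue points are apart for *Map4k3* and *Map3k1*.

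**Figure D2:**
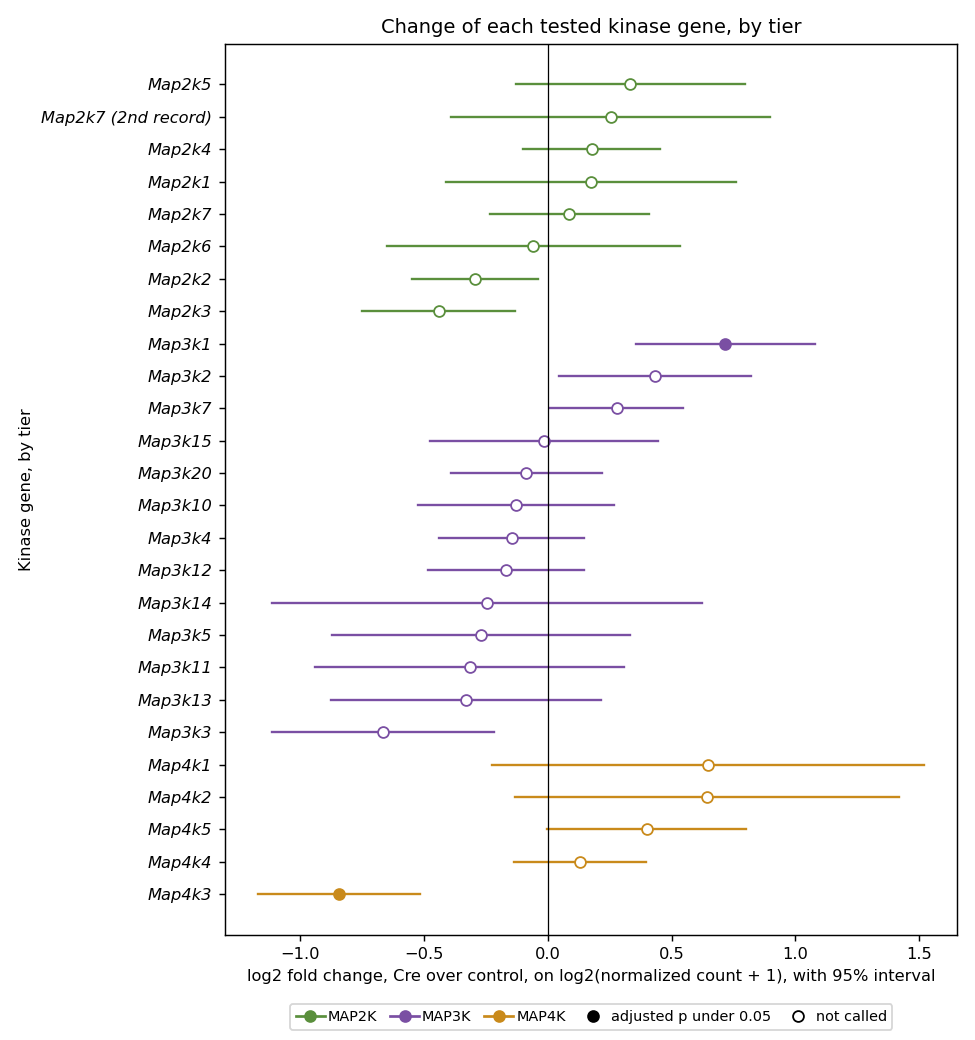
log2 fold change of each tested kinase row, Cre over control, on log2(normalized count + 1) (horizontal), with its 95% interval as a line and the tier as color. Filled points mark *Map3k1* (0.72) and *Map4k3* (-0.84), the 2 that passed the adjusted threshold.

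In the MAP4K tier, *Map4k3* fell and the other 4 kinases had positive log2 fold changes that did not pass. *Map4k3* (ENSMUSG00000024242, chr17:80580513-80728806 in GRCm38.p6) codes for GLK, a kinase known for activating JNK signaling and for relaying amino acid supply to mTORC1. It was at 353, 347 and 317 normalized counts in control and at 197, 204 and 167 in the libraries labelled Cre. Each library labelled Cre was far below the lowest control library. The means were 339 ± 19.1 and 189 ± 20 (SD, n = 3 each), a fall of 1.79-fold (95% interval 1.43 to 2.25). The log2 fold change was -0.84 (SE 0.15, limma adjusted p = 0.00548). It passed in all 16 alternatives that refitted every gene, with adjusted p from 0.000237 to 0.0431.

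*Map4k4*, which codes for HGK, a kinase linked to JNK signaling and cell migration, had the highest level per kilobase of all 30 rows with an exon length. It was at 12520.1, 13582 and 12240.2 in control and at 14124, 13504 and 14319.7 in the libraries labelled Cre. The groups overlap, and the log2 fold change was 0.13 (SE 0.12, limma adjusted p = 0.552). *Map4k5*, whose product is a close relative of GLK, was at 255, 259 and 203 in control and at 248.6, 375 and 330.4 in the libraries labelled Cre. Cre replicate 2 lay among the controls while the other Cre replicates lay above them (log2 fold change 0.40, SE 0.18, limma adjusted p = 0.198). Without Cre replicate 2 the log2 fold change was 0.57 and the adjusted p 0.0362. The germinal center kinase *Map4k2* was low, at 12.8, 27.8 and 21.3 in control and at 34.6, 30.1 and 29.5 in the libraries labelled Cre. Its groups did not overlap, but the log2 fold change of 0.64 had a SE of 0.35 (limma adjusted p = 0.287). *Map4k1*, whose product HPK1 is best known from blood cells, was at 9.18 to 16.1 in control and at 15.9 to 26.7 in the libraries labelled Cre (log2 fold change 0.65, limma adjusted p = 0.341), and the groups overlap. Of the 7 microglial markers, 5 were at or under 3 reads in every library and *P2ry12* was at 2.67 to 6.89, while *Csf1r* was at 154 to 201 in control and at 162 to 264 in the libraries labelled Cre (limma adjusted p = 0.483). Their part in the *Map4k1* values was not tested.

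In the MAP3K tier, *Map3k1* rose and the other 12 tested kinases did not pass, with 3 of the 13 log2 fold changes positive, 10 negative and a median of -0.15. *Map3k1* (ENSMUSG00000021754, chr13:111746428-111818269) codes for MEKK1, a kinase that activates the JNK and ERK branches and is also a ubiquitin ligase. It was at 478, 483 and 329 in control and at 655, 771 and 671 in the libraries labelled Cre. Control replicate 2 was the lowest of the 6, and all libraries labelled Cre were above all controls. The means were 430.1 ± 87.2 and 699 ± 63.1 (SD, n = 3 each), a 1.64-fold rise (95% interval 1.28 to 2.11). The log2 fold change was 0.72 (SE 0.16, limma adjusted p = 0.0201). The call was lost without control replicate 2 (log2 fold change 0.54, adjusted p = 0.0797) and without Cre replicate 2_2 (0.64, adjusted p = 0.0990).

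None of the other MEKK genes passed. *Map3k2* (chr18:32163089-32236751) and *Map3k3* (chr11:106084587-106156656) code for the paralogs MEKK2 and MEKK3, which activate MEK5 in the ERK5 branch. *Map3k2* was at 175, 154 and 147 in control and at 192, 260.0 and 196 in the libraries labelled Cre (log2 fold change 0.43, SE 0.18, limma adjusted p = 0.148). *Map3k3* was at 91.8, 108 and 93.4 in control and at 63.7, 64.6 and 55.5 in the libraries labelled Cre. The first was higher and the second lower in each library labelled Cre, without overlap. The means of *Map3k3* were 97.8 ± 9.09 and 61.3 ± 5.00 (SD, n = 3 each), with a log2 fold change of -0.67 (SE 0.20, limma adjusted p = 0.0627, and 0.0581 to 0.199 over the alternatives). Whether the changes of the paralogs differ from each other was not tested. *Map3k4*, whose product is switched on by GADD45 proteins, was at 521 to 635 in control and at 472 to 555 in the libraries labelled Cre, and the groups overlap.

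*Map3k7* (chr4:31963492-32023470) codes for TAK1, which joins TGF-beta, cytokine and Toll-like receptor signals to JNK, p38 and NF-kappaB. It was at 1017, 841 and 934 in control and at 1142, 1194 and 1045 in the libraries labelled Cre. The groups were apart by a small margin, and the log2 fold change of 0.28 (SE 0.12) did not pass (limma adjusted p = 0.180). *Map3k5*, for the oxidative stress kinase ASK1, was at 38.54, 38.03 and 38.68 in control and at 33.9, 36.2 and 25.97 in the libraries labelled Cre (log2 fold change -0.27, SE 0.27, limma adjusted p = 0.591). The 3 controls were within 1 count of each other, and Cre replicate 3 was the lowest. *Map3k13*, for the leucine zipper kinase LZK, was at 62.4, 67.3 and 62.7 in control and at 54.7, 38.7 and 61.8 in the libraries labelled Cre (log2 fold change -0.33, SE 0.25, limma adjusted p = 0.449). Its highest library labelled Cre was just below its lowest control.

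The remaining 6 tested MAP3Ks had groups that overlap and log2 fold changes from -0.32 to -0.02. *Map3k12*, for the dual leucine zipper kinase DLK, known for its part in axon degeneration and JNK signaling in neurons, had the highest mean level per kilobase of the MAP3Ks, at counts of 1795 to 2159 in control, against 1419 to 1988 with the Cre label. *Map3k20*, for the ribosome stress kinase ZAK, was at 919 to 1047 and at 774 to 1059. *Map3k15*, for ASK3, was at 551 to 784 and at 492 to 905. The mixed lineage kinase genes *Map3k10* and *Map3k11* were at 162 to 235 and 70.2 to 77.4 in control, and at 167 to 176 and 40.9 to 89.5 in the libraries labelled Cre. *Map3k14*, for NIK of the noncanonical NF-kappaB pathway, was at 34.0 to 49.7 in control and at 17.0 to 49.2 in the libraries labelled Cre. Cre replicate 3 alone was low for *Map3k14*, and its log2 fold change turned from -0.25 to 0.24 without that library.

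The other 5 MAP3Ks were below the filter and were not tested. *Map3k6*, for ASK2, was at 2.77 to 12 normalized counts over the 6 libraries, *Map3k8*, for TPL2, at 2.69 to 14.6, *Map3k9*, for MLK1, at 0 to 8.95, and *Map3k19* at 0 to 10.3. *Map3k21*, for MLK4, had 0 reads in every library, which allows up to 3 reads per library, or 2.08 to 4.39 normalized counts, for counting error only.

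None of the 8 MAP2K rows passed, with 5 log2 fold changes positive, 3 negative and a median of 0.13. At an unadjusted p under 0.05 (limma) 2 MAP2Ks passed, *Map2k2* and *Map2k3*, both lower (2 of 8, where 25.5% of all genes tested passed), and edgeR and DESeq2 on the recovered reads passed 0 of the 8 at an adjusted p under 0.05. *Map2k1* and *Map2k2* code for MEK1 and MEK2, which activate ERK1 and ERK2. *Map2k2* (chr10:81105913-81124697) was at 1437, 1277 and 1524 in control and at 1150, 1173 and 1126 in the libraries labelled Cre. The 3 libraries labelled Cre were close together and below all controls, with a log2 fold change of -0.29 (SE 0.12, limma adjusted p = 0.138). *Map2k1* (chr9:64185769-64253605) was at 219, 184 and 183 in control and at 338, 226 and 140 in the libraries labelled Cre. The libraries labelled Cre spanned both sides of the controls, with a highest value 2.42-fold above the lowest and a coefficient of variation of 42.4%. That spread was at the 96.8th percentile of genes of like level, whose median was 15.1%. The log2 fold change of *Map2k1* was 0.18 (SE 0.27, limma adjusted p = 0.734) and turned to -0.13 without Cre replicate 2.

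*Map2k3* and *Map2k6* code for MKK3 and MKK6, which activate p38. *Map2k3* (chr11:60932054-60952811) was at 413, 404 and 443 in control and at 345, 313 and 273 in the libraries labelled Cre. All libraries labelled Cre were below all controls, and the log2 fold change was -0.44 (SE 0.14, limma adjusted p = 0.0712). Without Cre replicate 2 it was -0.52 with an adjusted p of 0.0282. *Map2k6* was at 97.3, 101 and 77.4 in control and at 99.0, 57.7 and 117 in the libraries labelled Cre, with overlap (log2 fold change -0.06, SE 0.27, limma adjusted p = 0.918).

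*Map2k4* and *Map2k7* code for MKK4 and MKK7, which activate JNK. *Map2k4* was at 586, 619 and 539 in control and at 715, 653 and 605 in the libraries labelled Cre (log2 fold change 0.18, SE 0.13, limma adjusted p = 0.420). *Map2k7* under its main identifier (ENSMUSG00000002948) was at 757, 635 and 799 in control and at 652, 846 and 834 in the libraries labelled Cre (log2 fold change 0.09, SE 0.15, limma adjusted p = 0.762). Both overlap between the groups. The second *Map2k7* record (ENSMUSG00000109061) was at 221, 135 and 184 in control and at 128, 235 and 309 in the libraries labelled Cre (log2 fold change 0.25, SE 0.29, limma adjusted p = 0.644). How the authors' counting split reads between the records is not given, so both are uncertain. *Map2k5*, for MEK5, which activates ERK5, was at 204, 208 and 179 in control and at 269, 176 and 319.6 in the libraries labelled Cre. Cre replicate 2_2 lay below the controls and the other Cre replicates above them (log2 fold change 0.33, SE 0.21, limma adjusted p = 0.355).

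Levels of different kinases were compared per kilobase of exon, with exon lengths found for 30 of the 31 rows. Summed over a tier, the normalized count per kilobase was 937 ± 40.7 in control, against 895 ± 34.0 with the Cre label for MAP2Ks, 909 ± 54.4 and 924 ± 65.8 for MAP3Ks and 2218 ± 123 and 2394 ± 60.9 for MAP4Ks (SD, n = 3 each). *Map4k4* alone held 94.6% to 96.4% of the MAP4K level. *Map4k3* was next, with 3.62 ± 0.191% in control, against 1.87 ± 0.238% with the Cre label. The MAP3K level was spread over many genes. *Map3k12* held 23.8 ± 2.12% in control, against 20.9 ± 2.13% with the Cre label, *Map3k15* 17.3 ± 2.09% and 17.1 ± 4.12%, and *Map3k7* 15.9 ± 0.899% and 19.0 ± 0.581%. The share of *Map3k1* was 6.42 ± 1.55% in control, against 10.2 ± 0.962% with the Cre label. Of the MAP2K level, *Map2k2* held the largest share, at 40.3%, 38.6% and 42.6% in control, against 33.1%, 36.4% and 34.2% with the Cre label. These shares are given as a description with no test.

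**Figure D3:**
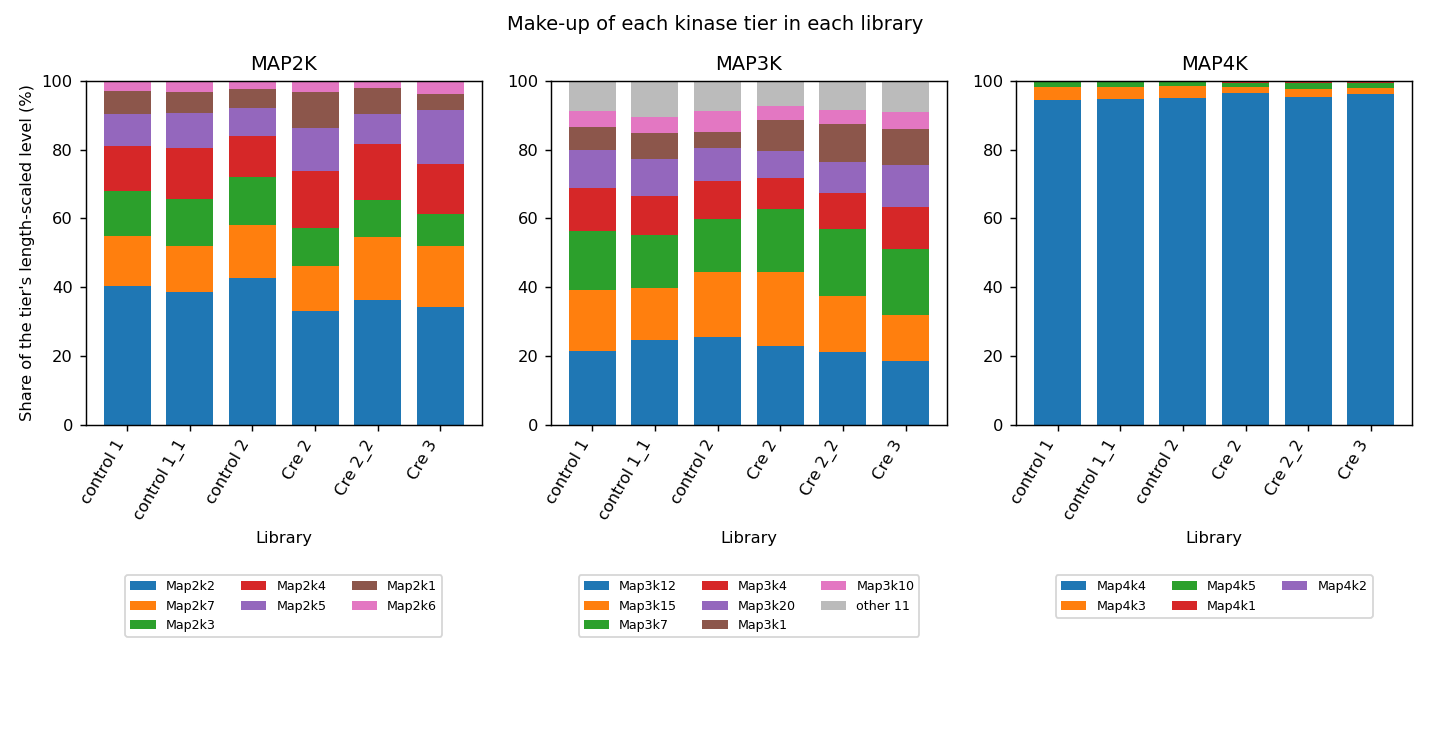
Share (vertical, percent) that each kinase held of the summed normalized count per kilobase of its tier, with 1 bar per library and 1 panel per tier. *Map4k4* fills 94.6% to 96.4% of the MAP4K bars, while the MAP2K and MAP3K bars are divided among several kinases.

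For the 3 pairs of MAP2Ks that share a MAPK, the balance between the partners was compared with an exact permutation test, two-sided, in which 3 libraries against 3 cannot give a p below 0.1. *Map2k1* made up 14.3%, 13.7% and 11.6% of the *Map2k1* and *Map2k2* sum per kilobase in control, against 24.4%, 17.4% and 11.98% with the Cre label (exact p = 0.3, adjusted over the 3 pairs 0.6). The lowest library labelled Cre was inside the control range and the others above it. *Map2k3* made up 82.6 ± 2.66% of the *Map2k3* and *Map2k6* sum in control, against 78.0 ± 7.09% with the Cre label (SD, n = 3 each, exact permutation p = 0.4, adjusted 0.6). *Map2k4* made up 47.9 ± 4.63% of the *Map2k4* and *Map2k7* sum in control, against 49.4 ± 5.53% with the Cre label (SD, n = 3 each, exact permutation p = 0.7, adjusted 0.7), leaving out the second *Map2k7* record. In each pair the groups overlap.

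Around these tiers, 58 other cascade genes were listed and 54 could be tested. Of these, 0 were higher and 3 were lower at a limma adjusted p under 0.05, 5.56% against 5.22% of all genes called lower, with 29 log2 fold changes positive and 25 negative. At an unadjusted p under 0.05 (limma) 4 were higher and 8 lower (25.5% of all genes tested passed at that p). On the recovered reads edgeR called 1 higher and 3 lower, and DESeq2 2 higher and 4 lower, including the same 3 lower genes. In the upstream kinase lists, 0 of 4 tested RAF and KSR genes and 0 of 5 TAO, MINK and TNIK genes passed (median log2 fold change 0.10 and 0.12). With limma, of 12 tested MAP kinases 2 fell (median -0.13), of 23 partners and scaffolds 1 fell (median 0.16), and of 10 MAP kinase phosphatases 0 passed (median -0.36). DESeq2 further called *Tab2* and *Txn1* higher among the partners and *Dusp9* lower among the phosphatases. *Mapk3*, which codes for ERK1, the substrate of MEK1 and MEK2, was at 1923, 2152 and 2211 in control and at 1545, 1244 and 1463 in the libraries labelled Cre. The measured log2 fold change was -0.57 (SE 0.12, limma adjusted p = 0.0159), and the call was lost in 4 of 16 alternatives, with adjusted p up to 0.0843. *Mapk12*, for p38 gamma, a target of MKK3 and MKK6, was at 184, 184 and 205 in control and at 85.2, 84.4 and 107 in the libraries labelled Cre. The log2 fold change of *Mapk12* was -1.05 (SE 0.18, limma adjusted p = 0.00462). *Mapk8ip1*, for JIP1, a scaffold that holds mixed lineage kinases, MKK7 and JNK together, was at 386, 385 and 348 in control and at 240.3, 232 and 259 in the libraries labelled Cre. For *Mapk8ip1* the log2 fold change was -0.61 (SE 0.14, limma adjusted p = 0.0175), and 5 of 16 alternatives lost the call, with adjusted p up to 0.1005. In all 3 genes the groups did not overlap. The gene called higher by both edgeR (adjusted p = 0.0470) and DESeq2 (0.0328) was *Tab2*, named after its values were seen, whose product is an adaptor that brings TAK1 to ubiquitin chains. *Tab2* was at 669.9, 688 and 742 in control and at 949, 1148 and 843 in the libraries labelled Cre (log2 fold change 0.48, SE 0.14, limma adjusted p = 0.0505). *Txn1*, for thioredoxin, which binds ASK1, was at 8224, 6559 and 7755 in control and at 19250.0, 11431 and 7959 in the libraries labelled Cre, with overlap (log2 fold change 0.69, SE 0.25, limma adjusted p = 0.115, DESeq2 0.0144). *Dusp9*, for a phosphatase of ERK, was at 27.5, 11.7 and 28.0 in control and at 5.54, 10.3 and 1.79 in the libraries labelled Cre, without overlap (log2 fold change -1.89, SE 0.60, limma adjusted p = 0.0688, DESeq2 0.0324). *Txn1* and *Dusp9* too were named after their values were seen. The untested genes were *Ksr2*, *Mos*, *Mapk13* and *Mapk15*.

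**Figure D4:**
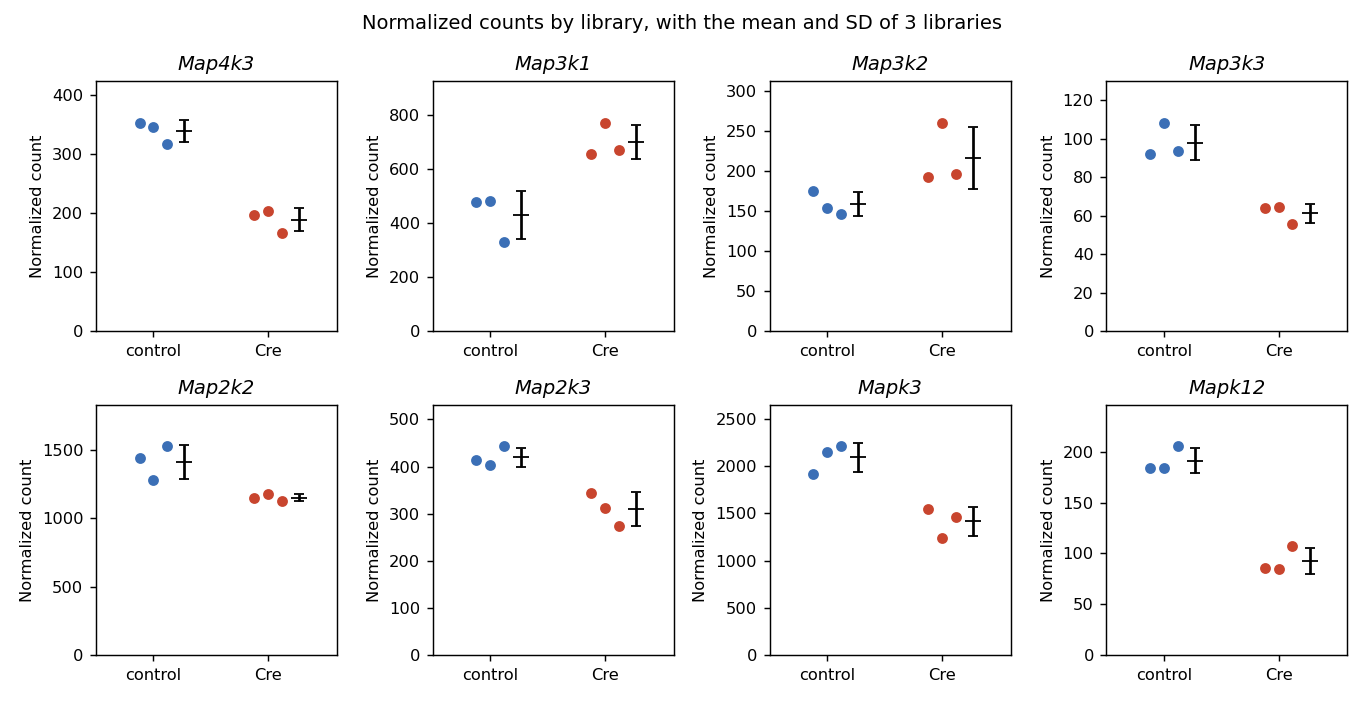
Normalized count (vertical, from 0) in each library for *Map4k3*, *Map3k1*, *Map3k2*, *Map3k3*, *Map2k2*, *Map2k3*, *Mapk3* and *Mapk12*, with control in blue, the libraries labelled Cre in red and the mean with its SD (n = 3) beside the points. The groups are apart in every panel, and *Map4k3*, *Map3k1*, *Mapk3* and *Mapk12* are those that passed the adjusted threshold.

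The strand setting of the authors' counting is not given in the sources used here, and the library kit does not mark strand, so reads of overlapping genes cannot be assigned with certainty. In RefSeq, *Map4k3* shares 678 bases of its span with the pseudogene *Gm9959* and *Map3k1* shares 1906 with the long noncoding RNA *Gm15327*. *Map3k3* shares 403 bases with *Limd2*, *Map2k1* 1162 with *Uchl4* and *Map3k12* 2422 with *Pcbp2* and 928 with *Tarbp2*. *Map3k15* shares 1128 with *Pdha1*, *Map3k11* 593 with *Pcnx3* and *Map4k5* 59 with *Atl1*. Of the partners named, *Limd2*, *Uchl4*, *Pcbp2*, *Tarbp2*, *Pdha1*, *Pcnx3* and *Atl1* are protein coding. Some kinases share longer stretches of their span with long noncoding RNAs. *Map4k5* shares 38124 bases with *4930512B01Rik* and 9986 with *4931403G20Rik*, *Map3k14* 18998 with *Gm34823* and *Map3k4* 6153 with *Gm46605*. Other, shorter noncoding overlaps are not listed. The per kilobase levels and tier shares of these kinases, *Map3k12* and *Map3k15* among them, carry this uncertainty, and its size was not tested. *Map2k2* and *Map2k3* share none with another gene of that annotation.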

How the data were processed

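RNA-seq of 6 NSC libraries was used, 3 control and 3 labelled Cre, mapped to groups from the sample titles. The submitters' processing notes name STAR 2.7, DESeq2 and mm10, while the methods name TopHat with mm9 and mm10. The read counter, strand setting and annotation version are not given in the sources used here. The authors deposited normalized counts per gene and library, a signal made by dividing read counts by DESeq2 size factors. Further deposited columns hold the authors' own comparison (log2 fold changes and their errors, a test score, p-values and adjusted p-values) and were not used. Of its 53379 rows, 873 have no gene name and 1 lacks a value and was left out. Dividing by the value of 1 read gave whole numbers (within 0.01) for 100% of values.

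The kinases and all gene lists were chosen with earlier results of these data known. The rule for single values was all MAP2Ks, kinases past the threshold, kinases whose groups do not overlap, kinases of the study's MAPK scheme, cascade genes past the threshold and *Tbl1xr1*. Other kinases are given by their ranges. Tests used limma 3.58.1 (R 4.3.3, lmFit and eBayes with trend) on log2(normalized count + 1) for genes with a mean of at least 10, with Benjamini-Hochberg adjustment over 14840 genes. Fold changes on this scale understate low genes. Intervals are 95% intervals of the fit. Alternatives were edgeR 4.0.16 and DESeq2 1.42.0 on recovered reads, pseudocounts of 0.5 and 5, no filter, a mean of at least 50, TMM and total count scaling, averaging control 1 and 1_1 or Cre 2 and 2_2, an adjusted p under 0.1 and leaving out each library. On recovered reads edgeR called 1483 genes and DESeq2 1755, against 1478 with limma. Tests were tested on simulated data first. Exon lengths are unions of GENCODE M1 exons matched by identifier. Coordinates, overlaps and promoters are RefSeq, GRCm38.p6, matched by symbol. The build of the counting annotation was not settled, so coordinates only place the genes. Exact tests used scipy 1.17.1 and figures matplotlib 3.10.9 in Python 3.11.15. No protein sequences were used here.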

Additional observations from a re-analysis of the deposited data

How the results depend on the processing

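Of 30 named genes, 22 kept their direction in every alternative they were tested in, and 16 also stayed on one side of the threshold. These were 16 alternatives that refit every gene, or 15 for *Map3k5*, *Map3k14*, *Map4k1* and *Map4k2*, which are below a mean of 50. Among the genes that kept both direction and side, only *Map4k3* and *Mapk12* were called throughout, and the others were never called. The call was lost in 2 alternatives for *Map3k1*, in 4 for *Mapk3* and in 5 for *Mapk8ip1*. Leaving out 1 library at a time gave 0 to 2 kinases higher and 1 to 2 lower, against 1 and 1 with all libraries. No kinase was called higher without control replicate 2 or without Cre replicate 2_2, and *Map4k5* and *Map2k3* were added without Cre replicate 2. At an adjusted p under 0.1, 3 kinases were lower. Over all genes, 704 higher and 774 lower became 351 and 309 with control 1 and 1_1 averaged and 1132 and 1248 at an adjusted p under 0.1. Leaving out 1 library gave 308 to 1188 higher and 250 to 1208 lower, the lowest counts without control replicate 1 and the highest without Cre replicate 2. No other setting moved these counts by over 1.5 times. The cause was not tested, and averaging a pair or leaving out 1 library also leaves fewer libraries.

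The reversals were all of kinases with a log2 fold change under 0.26 in size. *Map2k6* turned to 0.071 with Cre 2 and 2_2 averaged, and *Map3k15* to 0.016 with edgeR and 0.017 with DESeq2. Leaving out 1 library at a time, the log2 fold change ran from -0.13 to 0.50 for *Map2k1* (lowest without Cre replicate 2) and from -0.27 to 0.24 for *Map2k6* (highest without Cre replicate 2_2). It ran from -0.010 to 0.21 for *Map2k7* (lowest without control replicate 1_1) and from -0.022 to 0.61 for its second record (lowest without Cre replicate 3). For *Map3k10* it was -0.23 to 0.036 (highest without control replicate 2), for *Map3k14* -0.50 to 0.24 and for *Map3k15* -0.23 to 0.21 (both highest without Cre replicate 3), and for *Map3k20* -0.20 to 0.026 (highest without Cre replicate 2). No paired analysis was possible because the groups share fewer than 2 replicate numbers. Where 1 library is left out, its group keeps 2. The recovered depth, 7510615 to 14828100 reads, limits the kinases below a mean of 10, which were not tested.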
